A study of Mus musculus with 23 samples.

Results

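Of 21755 protein-coding transcription start sites (TSS) of the mouse, 543 carried acetylation of histone H3 at lysine 27 (H3K27ac) in the earliest labelled neurons of the cortex at E11.5 and at neither later stage. A TSS was the 5′ end of a protein-coding gene of GENCODE M21 on chromosomes 1 to 19 and X. The members were chosen by the presence of an E11.5 H3K27ac peak within 5 kb of the TSS and the absence of any E13.5 or E15.5 H3K27ac peak within 5 kb, all in Ebf2-EGFP+ cells. They made up 2.5% of all TSS. These H3K27ac values selected the members and are therefore only described. H3K27ac at E11.5 was found at 10955 TSS in all. Of these, 7262 also had it at E13.5 and E15.5, 1629 at E13.5 but not E15.5, and 1521 at E15.5 but not E13.5.

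H3K27ac is found at active promoters and enhancers, while trimethylation of the same lysine (H3K27me3) is the mark of Polycomb and of silenced genes, so 1 lysine cannot carry both at once. Preplate neurons are the first neurons of the cortex (Cajal-Retzius, or CR, neurons and subplate neurons), and they arise from dividing progenitors of the neuroepithelium. A gene with H3K27me3 in progenitors can lose it on differentiation and become acetylated, and an early gene can later be silenced.

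Chromatin of sorted cells from the cerebral cortex of Tg(Ebf2-EGFP)FB58Gsat mouse embryos was profiled by ChIP-seq, and 1 peak list was available for each of 8 groups. Both marks were read in Ebf2-EGFP+ cells of E11.5, E13.5 and E15.5 cortex, and in the Ebf2-EGFP- cells of E11.5 only, which are called Ebf2-EGFP- cells below. All groups carried the transgene, a reporter driven by Ebf2 sequences, and no other treatment. In the study's description, the E11.5 Ebf2-EGFP+ cells are for the most part preplate neurons, the E15.5 Ebf2-EGFP+ cells mostly CR neurons, and the Ebf2-EGFP- cells mostly progenitors, so that stage and cell type cannot be told apart in the Ebf2-EGFP+ series. Each list belonged to 2 ChIP libraries, except 1 library for H3K27ac of Ebf2-EGFP- cells. With 1 list a group there was no replicate error, depth was unknown, and no difference between lists or classes was tested. Intervals beside percentages are Wilson 95% confidence intervals and cover only the counting of TSS or peaks.

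The lists differed in length. The H3K27ac lists of Ebf2-EGFP+ cells held 37055, 102881 and 25793 peaks by stage, and that of Ebf2-EGFP- cells held 1386. The H3K27me3 list of Ebf2-EGFP- cells held 48963 peaks, while the Ebf2-EGFP+ lists held 6387, 6721 and 1438 in the same order of stages. A change in a share between stages moves with these lengths, and their part in it was not tested. Marker genes of both cell groups were acetylated in the E11.5 Ebf2-EGFP+ list, where H3K27ac lay within 5 kb of 38 of 50 progenitor genes and 40 of 59 preplate and early neuron genes. It lay near 5 of 31 genes of blood, vessels and microglia and near 8 of 19 genes of mesenchyme and meninges, against 50.4% of all TSS.

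Stretches of 8 acetylated sites are shown first, on GRCm38/mm10 and on the strand of the named gene, with each CpG in capitals. The first 5 are the parts of E11.5 H3K27ac peaks of members that an E13.5 H3K27me3 peak of Ebf2-EGFP+ cells also covered. They are all such stretches whose acetylated peak lay outside untranslated regions. They lie at Irx1 (chr13:71959598-71959754, minus strand, exon), Gsc (chr12:104472069-104472257, minus strand, exon) and Fam110c (chr12:31074386-31074581, plus strand, within 1 kb of the TSS). The others lie upstream of Hrg (chr16:22948594-22948726, plus strand, intergenic) and of Olfr706 (chr7:106891622-106891738, minus strand, exon of an annotated gene).
Irx1: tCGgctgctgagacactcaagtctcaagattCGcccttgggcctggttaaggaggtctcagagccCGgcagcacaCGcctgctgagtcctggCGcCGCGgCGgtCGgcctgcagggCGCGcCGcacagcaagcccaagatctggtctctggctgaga
Gsc: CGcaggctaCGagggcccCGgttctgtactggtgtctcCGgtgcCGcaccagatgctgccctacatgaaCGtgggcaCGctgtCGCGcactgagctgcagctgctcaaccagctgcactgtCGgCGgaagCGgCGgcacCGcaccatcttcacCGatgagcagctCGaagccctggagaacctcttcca
Fam110c: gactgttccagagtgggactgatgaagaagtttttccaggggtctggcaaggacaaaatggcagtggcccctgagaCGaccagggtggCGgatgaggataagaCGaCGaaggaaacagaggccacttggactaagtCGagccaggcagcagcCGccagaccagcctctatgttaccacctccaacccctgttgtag
Hrg: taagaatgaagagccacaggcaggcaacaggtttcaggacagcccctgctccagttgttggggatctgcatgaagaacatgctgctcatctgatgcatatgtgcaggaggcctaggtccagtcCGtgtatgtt
Olfr706: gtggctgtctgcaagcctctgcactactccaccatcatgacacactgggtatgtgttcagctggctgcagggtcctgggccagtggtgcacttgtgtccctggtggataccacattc
The Irx1 and Gsc stretches held 12 CpG in 157 bases and 16 CpG in 189 bases. The Fam110c stretch held 6 in 196 bases, that of Hrg 1 in 133 bases and that of Olfr706 0 in 117 bases. Peaks of the 2 marks, from different stages, thus overlapped at CpG-dense coding sequence of homeobox genes. They also did so at CpG-poor sequence near a plasma protein gene and an olfactory receptor gene. Of the bases of the Hrg peak 62.5% were repeat-masked, and single sites in olfactory receptor clusters are uncertain, as given below. In all, 18 of the members' peaks overlapped an E13.5 H3K27me3 peak.

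The next 3 are whole E11.5 H3K27ac peaks that no H3K27me3 peak overlapped at E11.5 or E13.5, shown for a patterning gene, a kinetochore gene and a CpG-poor upstream site. They lie at Gsx2 (chr5:75076031-75076310, plus strand, centred 570 bp downstream of the TSS), at Nsl1 (chr1:191063082-191063344, plus strand, centred 201 bp downstream) and at Foxp2 (chr6:14898535-14898712, plus strand, intergenic, centred at -2726 bp from the TSS). They held 28, 24 and 4 CpG in that order.
Gsx2: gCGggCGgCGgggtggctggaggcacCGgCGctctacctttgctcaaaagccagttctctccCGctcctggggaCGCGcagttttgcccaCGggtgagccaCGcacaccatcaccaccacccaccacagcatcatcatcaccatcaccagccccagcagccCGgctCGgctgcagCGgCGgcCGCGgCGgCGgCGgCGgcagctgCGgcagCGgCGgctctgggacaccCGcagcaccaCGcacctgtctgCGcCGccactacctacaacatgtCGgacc
Nsl1: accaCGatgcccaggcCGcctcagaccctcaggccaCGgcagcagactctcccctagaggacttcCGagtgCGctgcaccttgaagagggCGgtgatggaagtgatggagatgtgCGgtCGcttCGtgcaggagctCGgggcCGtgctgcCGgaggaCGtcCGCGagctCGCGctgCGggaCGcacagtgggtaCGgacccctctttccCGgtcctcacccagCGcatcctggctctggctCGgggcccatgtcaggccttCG
Foxp2: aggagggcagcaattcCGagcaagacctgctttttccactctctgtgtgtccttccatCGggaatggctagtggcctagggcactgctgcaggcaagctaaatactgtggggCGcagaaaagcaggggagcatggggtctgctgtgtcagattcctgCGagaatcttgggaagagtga

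The acetylation that chose the members was narrow and mostly a single peak. There were 560 distinct E11.5 H3K27ac peaks near the 543 members, with a median width of 201 bp and a range of 142 to 1055 bp. The 8918 peaks near TSS acetylated at all 3 stages had a median of 310 bp. A width of 300 bp or more was reached by 17% of the members' peaks and 51.9% of the others. A single peak lay near 494 members (91.0%), 2 peaks near 45 and 3 near 4. Among TSS acetylated at all 3 stages 63.8% had a single peak.

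The peaks of members also lay farther from the TSS. The median gap between the TSS and the edge of the nearest peak was 770 bp in members and 70 bp at TSS acetylated at all 3 stages. The TSS lay inside a peak in 82 members (15.1%) and within 1 kb of one in 304, against 34.0% and 86.3% of the TSS acetylated at all 3 stages. By place, 51.6% of the members' peaks were centred within 1 kb of a protein-coding TSS, 15.9% in an exon, 18.6% in an intron and 13.9% in intergenic sequence. Of the peaks near TSS acetylated at all 3 stages, 73.1% were centred within 1 kb of a TSS and 3.43% in intergenic sequence. Most of the bases were repeat-masked in 37 of the members' peaks (6.61%) and in 0.841% of the others.

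**Figure D1:**
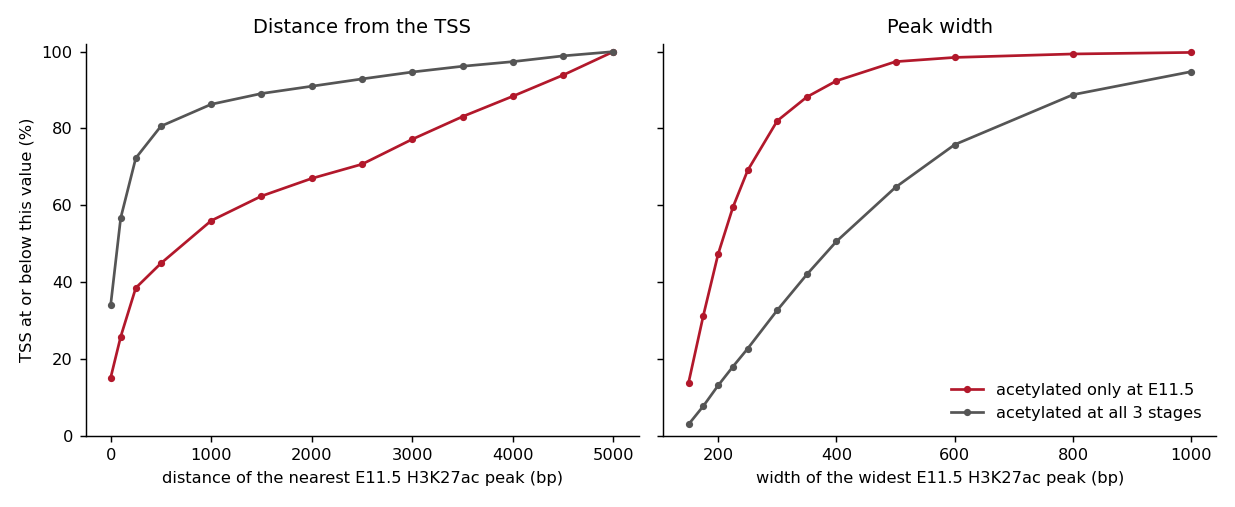
Cumulative share of TSS (%) by the distance in bp from the TSS to the nearest E11.5 H3K27ac peak (left) and by the width in bp of the widest E11.5 H3K27ac peak within 5 kb (right), for the 543 members (red) and the 7262 TSS acetylated at all 3 stages (grey). A peak lay within 1000 bp of 304 members and of 86.3% of the others, and the widest peak was at most 300 bp in 82.0% and 32.7%.

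Some members shared a peak. Of the 560 peaks, 34 lay near 2 or more members, and 64 members shared one with another member. The kinetochore gene Spc25 had its peak centred 168 bp downstream of the TSS, and the same peak, centred at -5048 bp from the TSS of G6pc2, a glucose-6-phosphatase of pancreatic islets, made that gene a member too. Of the peaks, 54 had the start of another annotated gene within 1 kb of their centre, and 15 lay within 5 kb of a protein-coding TSS that was no member.

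The widest acetylated site was at 1110032F04Rik on chromosome 3, with 1055 bp, followed by the zinc finger gene Zfp697 with 901 bp, the phosphodiesterase gene Pde8a with 819 bp and Bicdl2 with 790 bp. The Bicdl2 peak was the only 1 of the 560 that an E13.5 H3K27ac peak overlapped, in a part more than 5 kb from the TSS. The gap junction gene Gja3 had 681 bp, Phactr4 636 bp, the bHLH gene Atoh8 620 bp, Trim36 601 bp, Dglucy 583 bp and the potassium channel subunit gene Kcnv2 554 bp. Of these 10 members all but Bicdl2 had H3K27me3 within 5 kb in Ebf2-EGFP- cells, against 48.6% of all TSS. Where the widest E11.5 peak had 300 bp or more, the share was 57.6% of members and 79.2% of TSS acetylated at all 3 stages. The Bicdl2 H3K27ac peak itself overlapped an H3K27me3 peak of Ebf2-EGFP- cells, which lay more than 5 kb from the TSS. Of the members with 3 peaks, 3 were Pitrm1, a mitochondrial protease gene, Kcnk13, a potassium channel gene, and C1ql2, whose product is a secreted synaptic protein.

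The limits of the rule were close in some members. The farthest E11.5 peaks that counted lay 4987 bp from Olfr315, 4972 bp from Dmbt1 and 4956 bp from Mobp, and the nearest that did not count lay 5003 bp from Smim6 and 5025 bp from Pzp. The nearest later peak lay 5036 bp away at E13.5 in Bicdl2, 5040 bp in Ifnk and 5048 bp in Iffo2, and 5026 bp away at E15.5 in Pcdhga8. An E13.5 peak at 5000 bp kept Gm16253 out and one at 4968 bp kept Phgr1 out, and an E15.5 peak at 4885 bp kept Tmem230 out.

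H3K27me3 was not used to choose the members. In Ebf2-EGFP- cells an H3K27me3 peak lay within 5 kb of 202 of the 543 members, which is 37.2% (33.2% to 41.3%). The share was 48.6% over all TSS, 76.3% at TSS acetylated at all 3 stages and 9.53% at TSS acetylated at no stage. Members thus lay between the TSS that kept H3K27ac and those that never had it; their share was also below that of all TSS. The latter turned when only E11.5 peaks of at least 300 bp were used, with 57.6% of 99 members (47.7% to 66.8%). That interval contained the 48.6% of all TSS. The share also lay above it when the rule left out the E15.5 list, with 51.1% of 2064 (48.9% to 53.2%). TSS acetylated only at E15.5 had 34.6% (31.5% to 37.7%), an interval that overlaps that of the members.

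In Ebf2-EGFP+ cells few members had H3K27me3 at any stage. At E11.5, when these TSS were acetylated, 31 members had it, which is 5.71% (4.05% to 7.99%), against 4.96% of all TSS and 7.04% of TSS acetylated at all 3 stages. At E13.5, when the H3K27ac peaks were no longer listed, 42 members had it, which is 7.73% (5.77% to 10.3%), against 9.39% of all TSS. At E15.5, 3 members had it, which is 0.552% (0.188% to 1.61%), against 1.07% of all TSS. The member share was close to that of all TSS at each of the 3 stages, with an interval that contained the latter. This did not hold under every setting. With a window of 1 kb the E11.5 share was 4.1% (2.79% to 5.98%), against 1.91% of all TSS. At E13.5 it was 6.7% (4.7% to 9.45%) against 13.6% with a window of 10 kb, and 8.0% (5.88% to 10.8%) against 13.2% when any annotated start counted. Without the E15.5 list in the rule the shares of members at E11.5 and E13.5 were 3.44% (2.74% to 4.32%) and 4.65% (3.82% to 5.65%), both below those of all TSS. At E15.5 the share was 0.462% (0.127% to 1.67%) against 1.85% with a window of 10 kb, and 0.211% (0.0372% to 1.18%) against 1.79% with any annotated start.

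TSS that kept H3K27ac had H3K27me3 more often than members at E13.5. The share was 14.4% (13.6% to 15.2%) at TSS acetylated at all 3 stages and 19.3% (17.5% to 21.3%) at those acetylated at E11.5 and E13.5. At TSS acetylated at E11.5 and E15.5 it was 3.55% (2.73% to 4.6%), below the members. Of the 512 members without H3K27me3 at E11.5 in Ebf2-EGFP+ cells, 40 had it at E13.5, which is 7.81% (5.79% to 10.5%). The same share was 8.98% over all TSS and 13.8% at TSS acetylated at all 3 stages. At E13.5 most members, like most of all TSS, had no listed H3K27me3 peak.

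**Figure D2:**
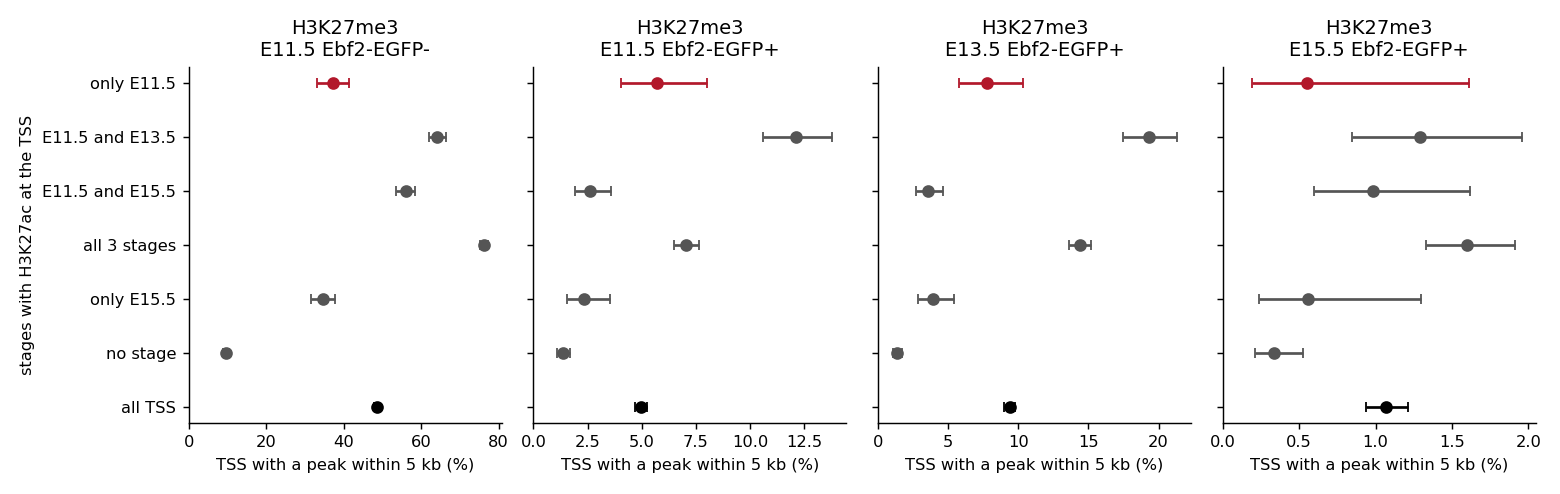
Share of TSS (%) with an H3K27me3 peak within 5 kb in each of the 4 lists, one panel a list with its own scale, by the stages at which the TSS had H3K27ac in Ebf2-EGFP+ cells. Points are shares and bars Wilson 95% intervals; members (red) had 37.2% in Ebf2-EGFP- cells and 5.71%, 7.73% and 0.552% in Ebf2-EGFP+ cells by stage.

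Members whose E11.5 peak lay within 1 kb had H3K27me3 in Ebf2-EGFP- cells in 40.8% (35.4% to 46.4%). Those with all peaks farther away had it in 32.6% (239 members), and the 2 intervals overlapped, the latter reaching 38.8%. Over all TSS the share was 48.6%. CpG-rich promoters, as defined below, were found in 111 of the 304 near members and 20 of the 239 far ones. Of these, 57 of the 111 and 10 of the 20 had H3K27me3. With other promoters the shares were 34.7% of near and 31.1% of far members. The part of promoter type in the difference was not tested. At E13.5 the shares of all near and all far members were 7.89% and 7.53%.

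The lists seldom met at 1 TSS, in members as in all TSS. No list marked 306 members (56.4%), against 47.5% of all TSS. The E11.5 Ebf2-EGFP- list alone marked 164. A further 23 had H3K27me3 both in Ebf2-EGFP- cells and in Ebf2-EGFP+ cells of E13.5, and 13 had it in both cell groups at E11.5. It was found at E13.5 alone in 16 and at E11.5 in Ebf2-EGFP+ cells alone in 16. No share over all TSS stands beside these single patterns, so they describe the members only. The Ebf2-EGFP- list and any Ebf2-EGFP+ list together marked 38 of the 543 members, against 2229 of all 21755 TSS. Any Ebf2-EGFP+ list marked 73 members, which is 13.4% (10.8% to 16.6%), against 14.2% of all TSS, and 3 had it at 2 or more stages of these cells, as did 250 of all 21755 TSS.

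Of the 202 members with H3K27me3 in Ebf2-EGFP- cells, 14 also had it in Ebf2-EGFP+ cells of the same stage, which is 6.93% (4.17% to 11.3%), against 7.22% of all TSS marked in Ebf2-EGFP- cells. The other 188 had no listed H3K27me3 in the Ebf2-EGFP+ cells of E11.5, where they had H3K27ac by the rule. At E13.5, 25 of the 202 had H3K27me3, which is 12.4% (8.53% to 17.6%), against 14.4% of all TSS marked in Ebf2-EGFP- cells. At E15.5, 1 of the 202 did.

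The H3K27ac list of Ebf2-EGFP- cells held few peaks near members. A peak of that list lay within 5 kb of 3 members, which is 0.552% (0.188% to 1.61%), against 4.2% of all TSS and 10.2% of TSS acetylated at all 3 stages. Among them were the natural killer cell receptor gene Klrb1c with a peak of 173 bp and Gm14412 with 157 bp. This list is the shortest of the mark.

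Promoter sequence differed between members and TSS that kept H3K27ac. A promoter was called CpG-rich when the 300 bases from 250 before to 50 after the TSS had at least 50% GC and an observed to expected CpG ratio of at least 0.6. Of the members 131 were CpG-rich, which is 24.1% (20.7% to 27.9%), against 41.6% of all TSS, 71.1% of TSS acetylated at all 3 stages and 4.74% of TSS acetylated at no stage. TSS acetylated at E11.5 and E13.5 had 30.8%, and those acetylated at E11.5 and E15.5 had 72.2%. The median CpG ratio was 0.357 in members and 0.53 over all TSS, and the median GC content 52.3% and 55.0%.

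In each promoter type members had H3K27me3 in Ebf2-EGFP- cells less often than TSS acetylated at all 3 stages. H3K27me3 lay near 67 of 131 CpG-rich members, which is 51.1% (42.7% to 59.5%), against 68.1% of all CpG-rich TSS and 77.0% of those acetylated at all 3 stages. It lay near 135 of the 412 other members, which is 32.8% (28.4% to 37.4%), against 34.6% of all other TSS and 74.5% of those acetylated at all 3 stages. At E13.5 the intervals of the 2 types of members overlapped, with 8.4% (4.75% to 14.4%) and 7.52% (5.35% to 10.5%).

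**Figure D3:**
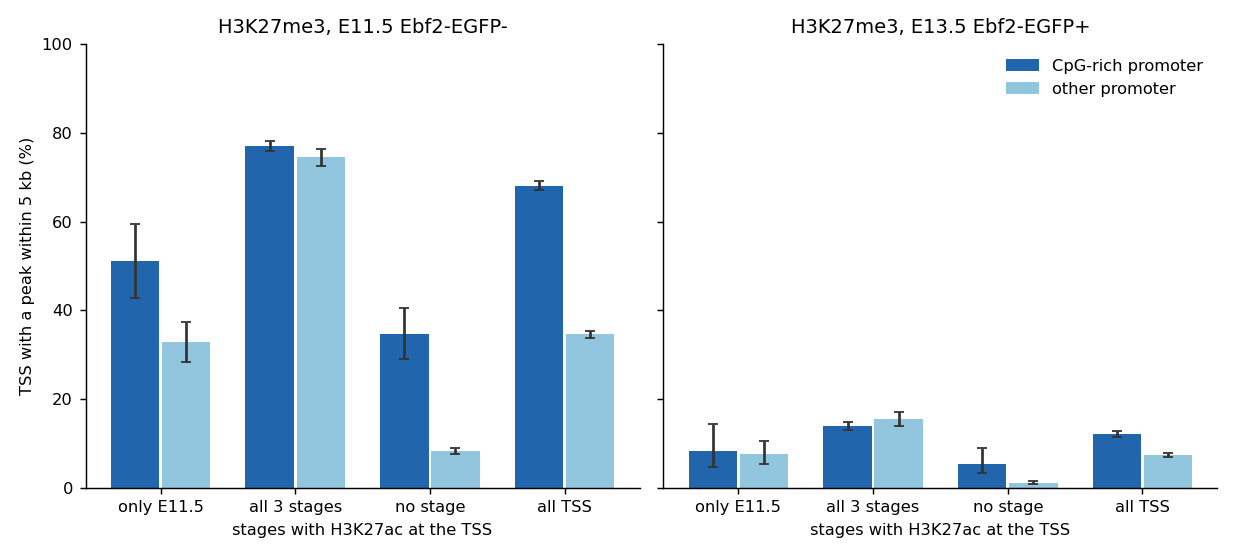
Share of TSS (%) with H3K27me3 within 5 kb in Ebf2-EGFP- cells (left) and E13.5 Ebf2-EGFP+ cells (right) for CpG-rich (dark) and other (light) promoters, with Wilson 95% intervals. In Ebf2-EGFP- cells CpG-rich members had 51.1% and other members 32.8%, against 77.0% and 74.5% at TSS acetylated at all 3 stages.

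The width and number of E11.5 peaks moved with H3K27me3 too. Members whose widest E11.5 peak had at least 300 bp had H3K27me3 in Ebf2-EGFP- cells in 57 of 99 cases, which is 57.6% (47.7% to 66.8%), and the remaining 444 members in 32.7% (28.5% to 37.2%). With 1 E11.5 peak of under 300 bp the share was 31.0% (26.7% to 35.6%) of 407 members and 67.8% (65.5% to 70.0%) of 1717 TSS acetylated at all 3 stages. In that width class the share at E13.5 was 7.13% (29 members) and 12.9% (11.4% to 14.6%) of the TSS acetylated at all 3 stages. The members' shares were thus also lower within the class of 1 peak of under 300 bp. Exact width and distance from the TSS were not matched in it, and their part was not tested.

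Peaks of the 2 marks also overlapped. Of the 560 peaks of members, 109 (19.5%) overlapped an H3K27me3 peak of Ebf2-EGFP- cells, against 47.3% of the peaks near TSS acetylated at all 3 stages. An E13.5 H3K27me3 peak overlapped 18 (3.21%, 2.04% to 5.02%) and an H3K27me3 peak of the E11.5 Ebf2-EGFP+ list overlapped 13 (2.32%, 1.36% to 3.93%), against 5.66% and 2.64%. No E15.5 H3K27me3 peak overlapped any of the 560 (0.0% to 0.681%). The 18 sites acetylated at E11.5 and trimethylated at E13.5 lay near Areg, Crybg3, F2rl1, Fam110c, Gja3, Gpr101, Gsc, Hpgd, Hrg, Htr5a, Irx1, Lrrc3b, Nme8, Nt5dc1, Olfr706, Ppp1r3c, Smoc2 and Usp51. Smoc2, which encodes a secreted matrix protein, was the 1 site where peaks of H3K27ac at E11.5 and of H3K27me3 in the Ebf2-EGFP- list and the E11.5 and E13.5 Ebf2-EGFP+ lists all overlapped it.

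The members were grouped by known roles after their names had been seen, so the groups are a guide to the list and carry no test. For the counts below, H3K27me3 lay near 48.6% of all TSS in Ebf2-EGFP- cells. In Ebf2-EGFP+ cells it lay near 4.96% of all TSS at E11.5 and 9.39% at E13.5. Genes of cell division and genome maintenance numbered 16. Their E11.5 peaks lay within 1 kb of the TSS in 13 of 16 and their promoters were CpG-rich in 11. Among them were Clspn, whose product relays replication stress to a checkpoint kinase, Ccnb2, a cyclin of the entry into mitosis, and the replication-linked gene Cdca7. Cdca8 encodes a subunit of the chromosomal passenger complex, Spc25, Cenpl and Nsl1 proteins of centromeres and kinetochores, and Asf1b a histone chaperone.

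H3K27me3 was listed in Ebf2-EGFP- cells near 8 of the 16, against 48.6% of all TSS. Ccnb2 had an E11.5 H3K27ac peak of 394 bp over its TSS, none at E13.5 within 12200 bp or at E15.5 within 81477 bp, and an H3K27me3 peak of 168 bp at the TSS in Ebf2-EGFP- cells. Clspn had an H3K27ac peak of 391 bp and an overlapping H3K27me3 peak of 326 bp in Ebf2-EGFP- cells. At E13.5 only Dnmt1, the maintenance DNA methyltransferase gene, had H3K27me3, in a peak of 116 bp. Another annotated start of Dnmt1 was acetylated at E13.5 and E15.5, so the rule describes the 5′-most start and not the whole gene. Of a separate list of 69 cell cycle and replication genes, Ccnb2 was the 1 member, where 2.5% of all TSS were members, and 37 of the 69 had H3K27ac at E11.5, against 50.4% of all TSS.

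Transcription factors of development numbered 15, with CpG-rich promoters in 9. Of the 15, 7 had H3K27me3 in Ebf2-EGFP- cells (En1, Cdx2, Foxp2, Atoh8, Twist1, Gsc and Irx1), 0 at E11.5 in Ebf2-EGFP+ cells and 3 at E13.5 (En1, Gsc and Irx1). All 3 were among the 7. Over all TSS the shares in these lists were 48.6%, 4.96% and 9.39%.

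Irx1, an Iroquois homeobox gene of early neural patterning, had 2 E11.5 H3K27ac peaks, the wider of 464 bp centred 4200 bp downstream of the TSS. It had 2 H3K27me3 peaks in Ebf2-EGFP- cells, and 0, 2 and 0 in the Ebf2-EGFP+ lists by stage. One of those at E13.5 covered the stretch printed above, and another annotated start of Irx1 had H3K27ac at E13.5. Gsc, the goosecoid homeobox gene of the gastrula organizer, had 1 E11.5 H3K27ac peak of 218 bp, 1 H3K27me3 peak of 198 bp in Ebf2-EGFP- cells and 2 at E13.5, the wider of 238 bp. En1, the engrailed homeobox gene of the midbrain-hindbrain boundary, had an H3K27ac peak of 414 bp, 4 H3K27me3 peaks in Ebf2-EGFP- cells and 1 at E13.5. In all 3, then, H3K27me3 was listed in Ebf2-EGFP- cells and at E13.5 but not in the E11.5 Ebf2-EGFP+ list. The 3 are the transcription factors of the group that had H3K27me3 at E13.5. Of the 543 members, 25 had it both in Ebf2-EGFP- cells and at E13.5, against 1524 of all 21755 TSS.

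Gsx2, a homeobox gene of ventral forebrain progenitors, had 2 E11.5 H3K27ac peaks of up to 280 bp and no H3K27me3 in any list. The nearest later H3K27ac lay 30754 bp away at E13.5 and 30742 bp away at E15.5. Foxp2, a forkhead gene of deep-layer cortical neurons, had 2 H3K27ac peaks, of which the one of 485 bp at the TSS met an H3K27me3 peak of 295 bp of Ebf2-EGFP- cells and the upstream one printed above met none. Twist1, a bHLH gene of mesenchyme, had an H3K27ac peak of 207 bp and 2 H3K27me3 peaks in Ebf2-EGFP- cells, the wider of 682 bp. Cdx2, a caudal homeobox gene of the posterior body, had an intronic H3K27ac peak of 351 bp and an H3K27me3 peak of 440 bp. Atoh8 had an H3K27me3 peak of 444 bp over its TSS. Ascl4 and the blood gene Tal1, with H3K27ac peaks of 324 bp and 489 bp, had none. Of all 359 TSS in symbol families of developmental transcription factors, 8 were members (2.23%, 1.13% to 4.33%), near the 2.5% of all TSS.

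Secreted signals and their antagonists numbered 19. H3K27me3 was near 9 in Ebf2-EGFP- cells, 0 at E11.5 in Ebf2-EGFP+ cells and 3 at E13.5 (Bmp8a, Sema3d and Areg). Over all TSS the shares in these lists were 48.6%, 4.96% and 9.39%. Dkk1, an antagonist of Wnt signalling, had an H3K27ac peak of 296 bp whose edge lay 6 bp from the TSS and no H3K27me3. Bmp8a, a BMP ligand gene, had 2 H3K27ac peaks, 3 H3K27me3 peaks in Ebf2-EGFP- cells and another of 135 bp at E13.5. Gdf10 and Gdf2, which encode BMP-related ligands, had H3K27ac peaks of 152 bp and 390 bp and 1 H3K27me3 peak each in Ebf2-EGFP- cells. Fgf5, an FGF ligand gene, had an H3K27ac peak of 150 bp and none. Areg, which encodes an EGF receptor ligand, had H3K27me3 at E13.5 alone, in a peak of 189 bp that overlapped its E11.5 H3K27ac peak of 221 bp. In symbol families of the Wnt, Bmp, Tgfb, Fgf, Shh and Notch pathways 8 of 148 TSS were members (5.41%, 2.76% to 10.3%), against 2.5% of all TSS. These families were drawn by gene symbol alone, and the 8 include Ptchd1, Ptchd3 and Fgfbp1.

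Genes of neuronal signalling and excitability numbered 24, with CpG-rich promoters in 4 and a peak within 1 kb in 18. H3K27me3 was near 10 in Ebf2-EGFP- cells, near Otof, Avpr1a and Kcnv2 in the E11.5 Ebf2-EGFP+ list and near Htr5a, Th and Gpr101 at E13.5. Over all TSS the shares in these lists were 48.6%, 4.96% and 9.39%. Htr5a, a serotonin receptor gene, had an H3K27ac peak over its TSS, 2 H3K27me3 peaks in Ebf2-EGFP- cells, the wider of 342 bp, and 1 of 126 bp at E13.5. Th, the rate-limiting enzyme gene of catecholamine synthesis, had an intronic H3K27ac peak of 197 bp, an H3K27me3 peak of 298 bp in Ebf2-EGFP- cells and another of 143 bp at E13.5. Gpr101, which encodes an orphan receptor, had H3K27me3 at E13.5 alone, in a peak of 123 bp. The metabotropic glutamate receptor gene Grm5 had an H3K27ac peak of 160 bp and no H3K27me3, while Grm7 had 243 bp and 2 H3K27me3 peaks in Ebf2-EGFP- cells. Kcnv2 had 2 H3K27me3 peaks in the E11.5 Ebf2-EGFP+ list, the wider of 438 bp, beside its H3K27ac peak of 554 bp in the same cells. It was 1 of 31 members with H3K27me3 in that list.

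Myelin genes (Cnp, Mobp, Ugt8a, Plekhb1 and Gpr37) numbered 5, with H3K27me3 near 2 in Ebf2-EGFP- cells and near 0 in any Ebf2-EGFP+ list. Another start was acetylated at E13.5 in Cnp, which encodes a myelin phosphodiesterase, and in Mobp and Plekhb1.

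Genes best known outside the brain were also members. Skin barrier genes numbered 15, with Flg, the filaggrin gene, Tgm3, a transglutaminase gene, and members of the Lce, Sprr2a and Krtap clusters. H3K27me3 was near 5 of them in Ebf2-EGFP- cells and near Tgm3 and Krt36 in E11.5 Ebf2-EGFP+ cells. Germ cell genes numbered 14, with the protamine gene Prm2, the piRNA pathway gene Piwil2 and the meiosis genes Meiob and Msh4, and H3K27me3 was near 5. Genes of liver, kidney and gut numbered 15, with H3K27me3 near 6 in Ebf2-EGFP- cells. Immune genes numbered 14, with H3K27me3 near 4 in these cells, against 48.6% of all TSS. None of the 14 immune genes had a CpG-rich promoter and 3 had a peak within 1 kb, against 11 of 16 and 13 of 16 in the cell division group.

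**Figure D4:**
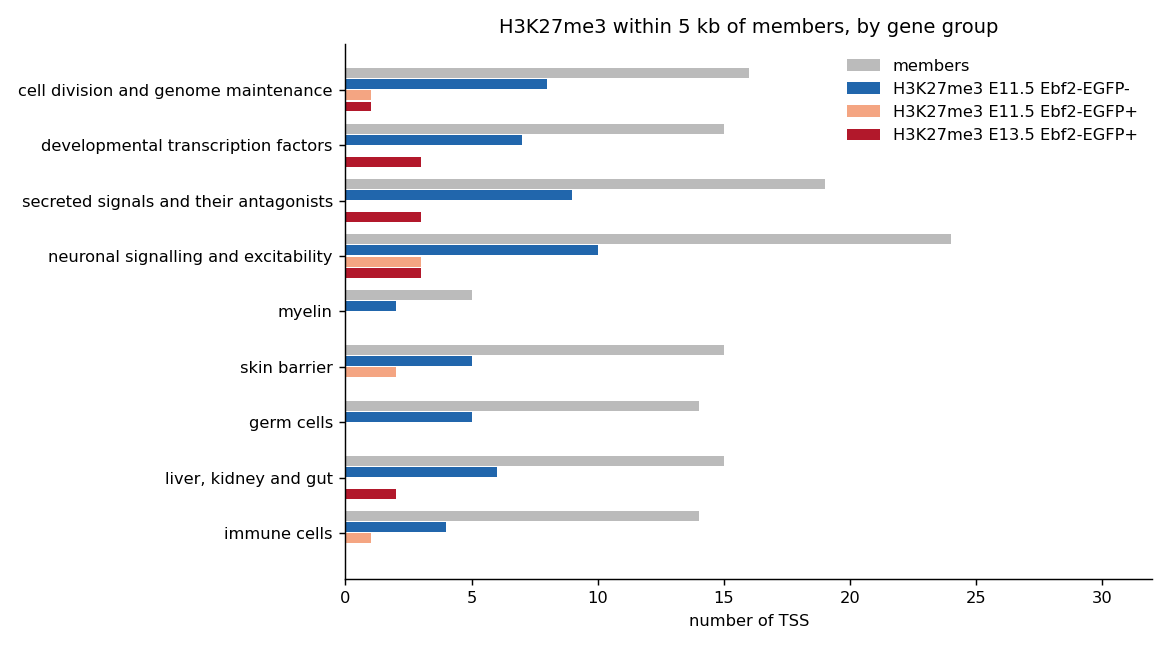
Number of members in each role group (grey) and of those with H3K27me3 within 5 kb in E11.5 Ebf2-EGFP- (blue), E11.5 Ebf2-EGFP+ (light orange) and E13.5 Ebf2-EGFP+ (red) cells. Over all TSS the shares with H3K27me3 in these 3 lists were 48.6%, 4.96% and 9.39%. Gpr37 and Dmrt1 each stand in 2 groups; E13.5 H3K27me3 was near 3 of 15 transcription factors, 3 of 19 signals, 3 of 24 neuronal genes, 2 of 15 liver, kidney and gut genes and 1 of 16 cell division genes.

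Olfactory, vomeronasal and taste receptor genes gave 28 members. Of the 1517 TSS of these families 56 had H3K27ac at E11.5, and in 28 of these 56 it was seen at that stage only, against 543 of 10955 over all TSS; this ratio was used by the rule. As a share of the 1517 TSS the members were 1.85% (1.28% to 2.65%), against 2.5% of all TSS. Protocadherins and cadherins had the highest share of the 20 symbol families, with 8 of 101 TSS (7.92%, 4.07% to 14.9%), against 2.5% of all TSS. These were Pcdh11x, Pcdhga8 and the clustered genes Pcdhb2, Pcdhb3, Pcdhb4, Pcdhb8, Pcdhb9 and Pcdhb15, which help to give each neuron its surface identity. The clustered Pcdhb members rest on 6 peaks of 142 to 296 bp, some shared by neighbours, and 5 of the 6 are centred in exons. Histone genes had 0 members of 100. Genes of these clusters have near-identical copies, and the study's methods list Bowtie's M option, under which a read with several matches is placed at 1 of them at random, so single members of such clusters are uncertain.

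Marker genes of the sorted cells were members about as seldom as all TSS, of which 2.5% were. None of 50 neural progenitor genes and none of 59 preplate and early neuron genes was a member. Of 39 CR genes only Akap6, an anchor protein gene of protein kinase A, was a member, with 2 H3K27ac peaks, no H3K27me3 and an H3K27ac peak at another start at E13.5. Of 31 genes of blood, vessels and microglia only Kdr, a VEGF receptor gene of endothelium, was a member. Gsx2 was the 1 member of 19 interneuron genes and Twist1 the 1 member of 19 mesenchyme genes.

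The 3 members with H3K27me3 at E15.5 were Amotl1, whose product lies at tight junctions, with a peak of 210 bp, Dlec1 with 172 bp and the lysosomal nuclease gene Dnase2a with 122 bp. Dnase2a also had H3K27me3 at E13.5, in a peak of 334 bp, and 2 peaks in Ebf2-EGFP- cells. Among the members with the widest H3K27me3 at E13.5 were Lrrc3b with 270 bp, Adprhl1 with 255 bp, Hmcn2 with 211 bp and Ace3 with 202 bp. The Hmcn2 peak lay 37 bp from the TSS, while its E11.5 H3K27ac peak of 388 bp was centred at -3982 bp from it.

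Later acetylation could lie just beyond the window of the rule. A peak lay within 10 kb of members more often at E13.5, the longest H3K27ac list, than at E15.5. The nearest E13.5 H3K27ac peak lay at a median of 13181 bp from members, against 18429 bp from the 8388 TSS that had none within 5 kb. It lay within 10 kb of 206 members, which is 37.9% (34.0% to 42.1%), against 25.3% of those TSS. The nearest E15.5 peak lay at a median of 35790 bp, against 43148 bp from the 10288 TSS without one within 5 kb, and within 10 kb of 10.7% (8.35% to 13.6%), against 11.8%.

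**Figure D5:**
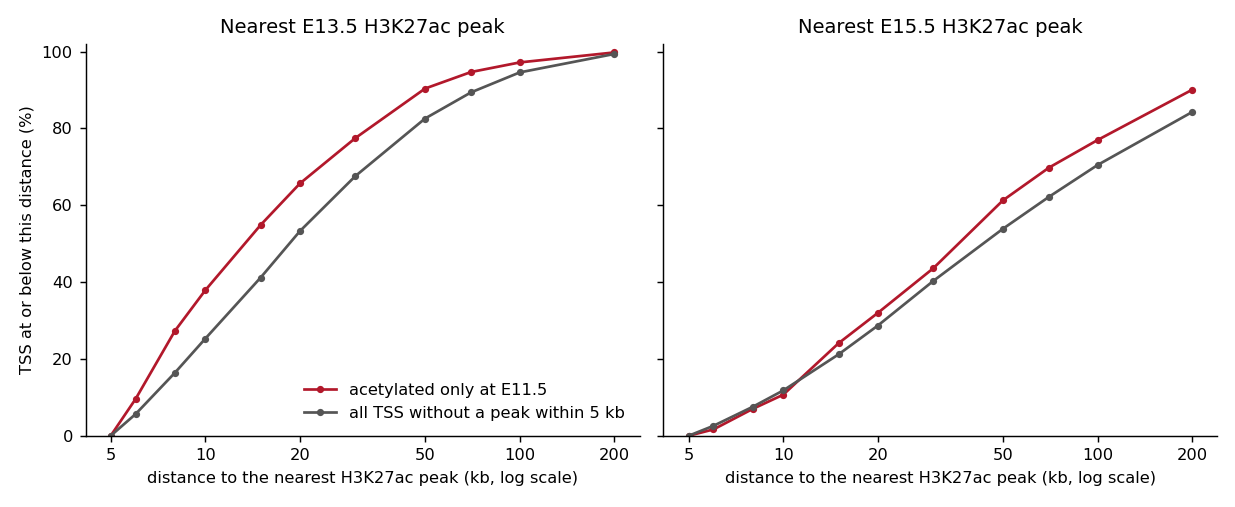
Cumulative share of TSS (%) by the distance in kb (log scale) to the nearest H3K27ac peak of Ebf2-EGFP+ cells at E13.5 (left) and E15.5 (right), for members (red) and all TSS without such a peak within 5 kb (grey). At E13.5, 37.9% of members and 25.3% of the others had one within 10 kb; at E15.5 it was 10.7% and 11.8%.

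The gene could also have H3K27ac at another start at a later stage. Whether that start had H3K27ac at E11.5 was not examined. Another annotated start lay over 5 kb from the TSS in 215 members (39.6%). H3K27ac lay within 5 kb of another start of the gene at E13.5 in 118 members (21.7%, 18.5% to 25.4%), at E15.5 in 48 (8.84%) and at either stage in 126 (23.2%, 19.8% to 26.9%). No share over other TSS stands beside these counts, so they describe the members only. The label of these 126 thus holds for the 5′-most start, not for the gene. At E13.5 they included Grm5, Elf5, Ehf, Mitf, Tal1, Dnmt1 and Th.

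Distal H3K27ac, from 5 kb to 100 kb away, was found around most members and most TSS. At E11.5 it was found around 86.7% (83.6% to 89.3%) of members and 86.4% of all TSS, and at E13.5 around 97.2% (95.5% to 98.3%) and 97.3%. At E15.5 the values were 77.0% (73.3% to 80.3%) and 80.7%, the latter just above the interval of the members. The median numbers of distal peaks were 3, 8 and 2 around members by stage and 4, 10 and 3 around all TSS.

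Motifs were counted on both strands of the same 300 bases of promoter. The E-box letters CAGATG were found in 117 members (21.5%), against 15.3% of all promoters, 11.2% of those acetylated at all 3 stages and 1087 of the 5427 acetylated at no stage. The E-box CAGCTG was found in 16.8% of members and 15.4% of all promoters, the EBF letters TCCCNNGGG in 8.66% and 7.79%, TATAAA in 13.6% and 12.7% and CCAAT in 39.6% and 38.9%. A match is a run of letters and not a bound site. Members on chromosome X numbered 13 (2.39%, 1.4% to 4.05%), against 4.36% of all TSS.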

How the data were processed

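Chromatin of sorted cortex cells was read by ChIP-seq, and 8 peak lists were used, 1 for each mark and cell group (15 ChIP libraries, with 8 input libraries). Per the submitters' notes and the study's methods, the authors aligned reads to mm10 with Bowtie 1.1.2, allowing up to 3 mismatches, and MACS peaks were those at p 1e-05. Its version, the pooling of replicates and the use of the inputs are not given in the sources used here. The score the authors deposited was 0 for every peak, so only positions were used. Starts were read as counted from 0 and are given counted from 1, and all peaks lay within GRCm38 chromosomes.

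A TSS was marked when the edge of a peak lay within 5 kb. Genes were from GENCODE M21 and sequence from the GRCm38 assembly of RefSeq. Shares carry Wilson 95% intervals (SciPy 1.17.1), and no test was made. The distance code was tested on simulated data. The members and lists were chosen with earlier results of these data known, and the role groups after the members had been seen. The other genes named were members in marker lists or transcription factor, pathway or receptor families, the 10 with the widest E11.5 peak, the 5 with most peaks, and up to 10 each with H3K27me3 at E13.5 or E15.5 or with H3K27ac in Ebf2-EGFP- cells, besides examples at the limits of the rule. Peaks listed in full as overlapping were named after their values were seen. Values of 1 member are not reported here.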

Additional observations from a re-analysis of the deposited data

How the results depend on the processing

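The number of members and the shares with each mark were recomputed under 7 alternatives. Of 42 values, 31 stayed within 1.5 times the number of members or within the interval of the share. Using only E11.5 H3K27ac peaks of at least 300 bp left 99 members. Their H3K27me3 shares were 57.6% in Ebf2-EGFP- cells and 9.09% in E11.5 and 0.0% in E15.5 Ebf2-EGFP+ cells, with H3K27ac at 0.0% in Ebf2-EGFP- cells. Without the E15.5 list in the rule there were 2064 members, with H3K27me3 at 51.1% in Ebf2-EGFP- cells, at 3.44% in E11.5 and 4.65% in E13.5 Ebf2-EGFP+ cells, and H3K27ac at 4.99% in Ebf2-EGFP- cells. Of these, the TSS that E15.5 acetylation would have kept out number 1521. With a window of 1 kb the share with H3K27me3 in Ebf2-EGFP- cells was 31.8%, against 36.5% of all TSS. Under the 300 bp limit and without the E15.5 list, the H3K27me3 share of Ebf2-EGFP- cells exceeded the 48.6% of all TSS, in place of lying below it. Under the 300 bp limit the interval (47.7% to 66.8%) contained 48.6%, and without the E15.5 list it was 48.9% to 53.2%. The cause of these changes was not tested. No paired analysis was possible because 1 list stands for each group. Depth is unknown, so an absent peak may be one that was not detectable.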
